A study of Mus musculus with 2 samples.

Results

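The Hox genes of mouse dorsal root ganglia were read as a record of axial position in 2 RNA sequencing libraries. Rows were taken by their symbol, Hox followed by the letter of a cluster (a to d) and a number, which gave 39 genes among the 23282 rows of each file. The AEW library came from wild-type mice treated with acetone, ether and water, which dries the skin and makes mice scratch, given for 5 consecutive days. The control library came from wild-type mice given water. Ganglia were collected on day 6, and each group is 1 pool of RNA from 6 mice, so no difference has a replicate check. Effects of the treatment and differences in animals, dissection or library preparation cannot be told apart. Strain, age, the treated skin site and the spinal levels of the ganglia are not given in the labels used here.

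Hox genes encode homeodomain transcription factors that stand in 4 chromosomal clusters, HoxA to HoxD. HoxA is on chromosome 6, HoxB on 11, HoxC on 15 and HoxD on 2. Within a cluster the genes lie in the order of their paralogue number, and that order matches where along the body axis each is switched on in the embryo. The front border of expression lies in the hindbrain and neck for low numbers and at forelimb and thoracic levels for middle numbers. For high numbers it lies at lumbar, sacral and tail levels. Many genes stay expressed behind their border, and a group is said here to mark the level of that border. The share of counts in a group is thus not the share of ganglia from that level. Adult spinal cord, ganglia and fibroblasts keep much of this code, so the mix of paralogues in a tissue sample depends on the levels it was taken from. A comparison of the paralogue groups addresses whether both pools came from similar ganglion levels.

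The AEW library held 14376228 counts and the control library 9333882, and 17485 and 17182 rows had at least 1 count in the AEW and the control library. The tissue is labelled as dorsal root ganglia and the cell type as neurons. All 12 listed sensory neuron markers with a row were measured, as were all 11 glial markers, which took 2.41% of AEW counts and 2.61% of control counts, so glia were present beside neurons. Pan-neuronal markers took 1.48% of AEW counts and 0.908% of control counts, fibroblast markers 0.807% and 1.53% in the AEW and the control library, and skeletal muscle markers 0.0836% and 0.185% in the same order. Epidermis and hair markers took 0.0924% of AEW counts and 0.00351% of control counts. In pooled bulk RNA, fewer cells of a type and less RNA per cell cannot be told apart.

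Hox transcripts were almost equally abundant in the libraries. All 39 genes together had 7576 counts in the AEW library and 4667 in the control library, which is 511 CPM in AEW and 515 CPM in control. These levels in CPM, counts per 10 to the power of 6, use library sizes scaled by TMM, a method that assumes most genes have a ratio near 1. The AEW to control ratio was 0.992, with an exact 95% counting interval of 0.956 to 1.03. As a share of all counts, Hox genes took 0.0527% in the AEW library and 0.0500% in the control library. Under total count scaling the ratio was 1.05. When the libraries were instead scaled on the median ratio of pan-neuronal markers, the Hox ratio was 0.639.

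Of the 39 genes, 32 had at least 20 counts over both libraries and were taken as measured. Hoxa13, Hoxb13, Hoxc11, Hoxc12 and Hoxd13 had 0 counts in both libraries, which allows up to 3 counts each, or 0.202 CPM in the AEW library and 0.331 CPM in the control library. Hoxb1 had 3 AEW counts and Hoxd12 had 2, and both had 0 control counts. A gene was called higher or lower when its ratio was at least 1.5-fold and the counting interval excluded 1. By that rule Hoxd4 and Hoxc13, 2 of the measured Hox genes, were higher in AEW, where 17.3% of all 14854 measured genes were called higher. A further 2 were called lower, Hoxc8 and Hoxa11, where 14.9% of all measured genes were called lower. The shares among measured Hox genes were thus 6.25% in each direction, below both backgrounds. The other 28 were called neither way, and the median log2 ratio of the measured Hox genes was 0.05, against 0.03 for all measured genes. The ratio was above 1 for 17 of the 32, where 52.2% of all measured genes had a ratio above 1. Total count scaling gave 4 Hox genes higher and 2 lower, adding Hoxd1 and Hoxd11, and scaling on pan-neuronal markers, which lowers every log2 ratio by 0.63, gave 2 higher and 16 lower.

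**Figure D1:**
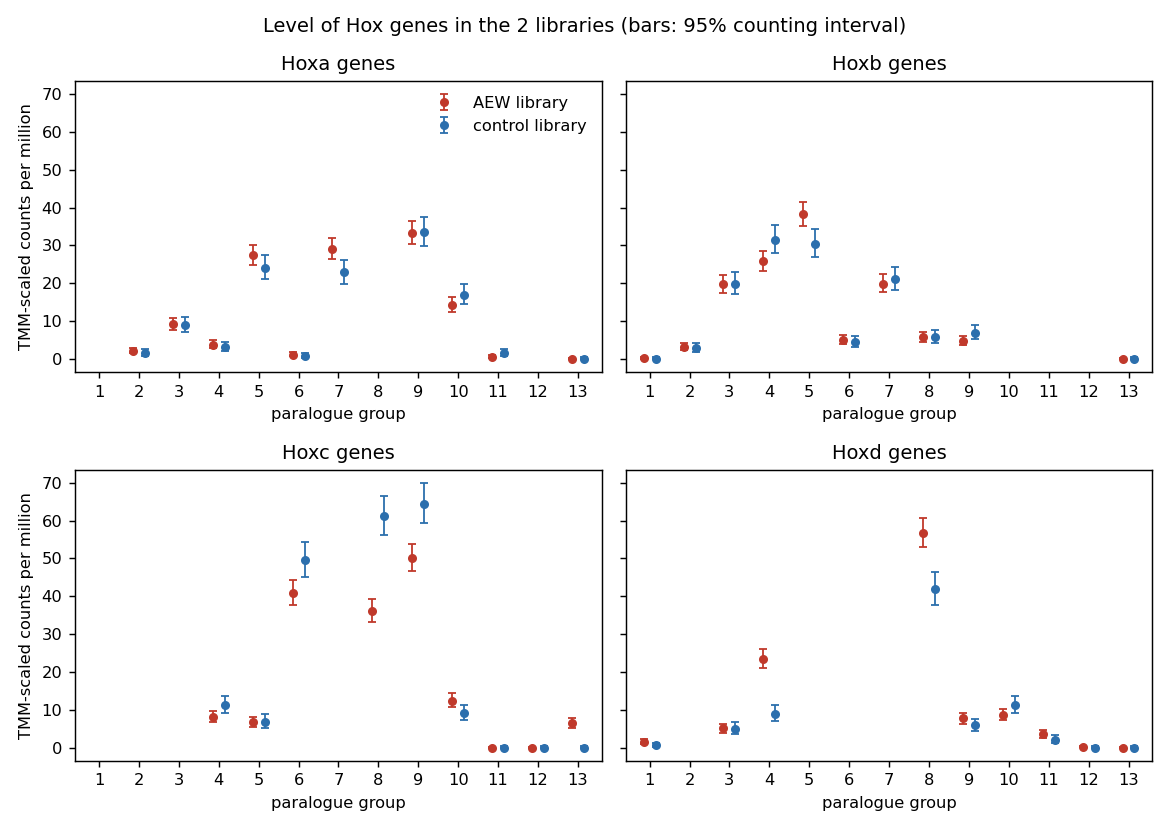
TMM-scaled CPM of Hox genes by paralogue group, with 1 panel per cluster, the AEW library in red left of the control library in blue, and bars for the exact 95% counting interval. The profiles run in parallel in most positions. The widest gaps are at Hoxc8 (36.2 CPM in AEW, 61.3 CPM in control) and Hoxd8 (56.7 CPM in AEW, 41.9 CPM in control). Next are Hoxd4 (23.3 CPM in AEW, 8.95 CPM in control) and Hoxc9 (50.2 CPM in AEW, 64.5 CPM in control).

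The distribution over paralogue groups was similar in both libraries. Groups 8 and 9, which mark lower forelimb and thoracic levels, took the largest shares in each, and groups 1, 2, 11, 12 and 13 took at most 1.25% each. When the shares of the 13 groups were laid over each other, 93.7% of Hox counts coincided, and the largest difference for any group was 2.76 percentage points, in group 9. Over the 39 single genes 87.3% coincided, with a largest difference of 4.82 points. No ganglia of known level were compared, so the overlap that ganglia of different levels would give is not known. Groups 1 to 5 held 34.2% of AEW Hox counts (95% binomial interval 33.1 to 35.3) and 30.3% of control Hox counts (29.0 to 31.6). Groups 6 to 9 held 56.8% (55.7 to 57.9) in AEW and 61.8% (60.4 to 63.2) in control. These shares do not depend on how the libraries are scaled, and for groups 1 to 5 and 6 to 9 the binomial intervals did not overlap.

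Groups 10 to 13 held 8.96% (8.33 to 9.63) of AEW Hox counts and 7.95% (7.19 to 8.76) of control Hox counts, intervals that overlap. With Hoxc13 left out, the difference of 1.01 percentage points turned to -0.14. Weighting each gene by its length gave 32.7% in AEW and 28.1% in control for groups 1 to 5, 58.0% and 64.0% for groups 6 to 9, and 9.30% and 7.90% for groups 10 to 13, with AEW first in each pair.

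**Figure D2:**
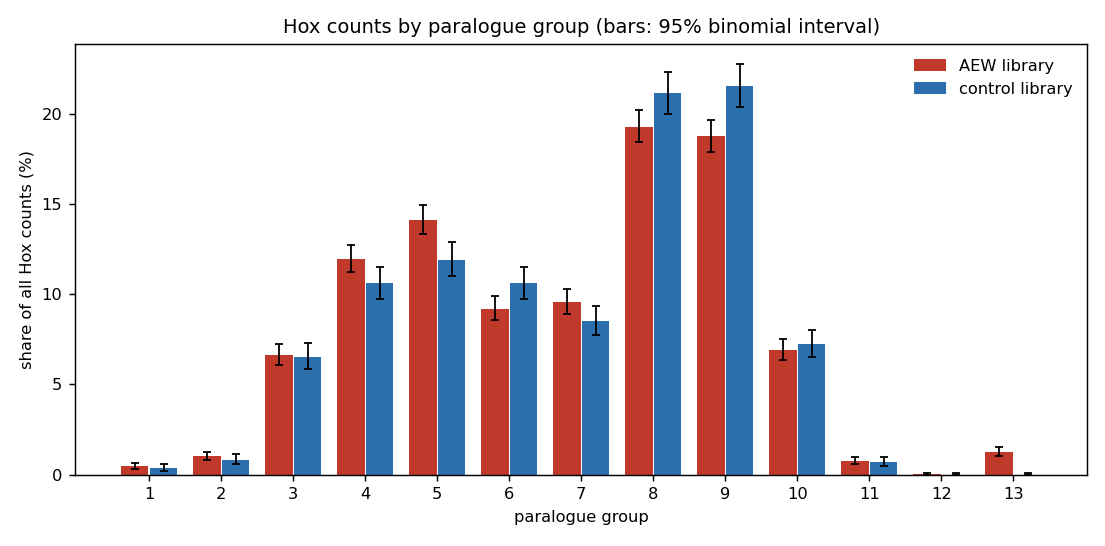
Share of all Hox counts in each paralogue group (percent), AEW in red left of control in blue, with exact 95% binomial intervals. Both libraries peak at groups 8 and 9, AEW is above control at groups 4 and 5, and AEW is below control at groups 8 and 9. The intervals of groups 5, 9 and 13 do not overlap.

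The mean paralogue number over all Hox counts condenses this profile and does not name a spinal level. It was 6.80 in the AEW library (95% counting interval 6.75 to 6.86) and 6.90 in the control library (6.84 to 6.96), a difference of -0.09 (-0.17 to -0.01). The difference was thus a small part of the distance between neighbouring groups, although its counting interval held negative values only. It moved when single genes were left out, and Hoxd4 and Hoxc13 were chosen for this after their ratios were seen. Without Hoxd4 it was -0.01 (-0.09 to 0.07), without Hoxc13 -0.17 (-0.25 to -0.09), without both -0.09 (-0.17 to -0.01), and without Hoxc9, the row with most counts, -0.03. By cluster, the difference was -0.19 (-0.37 to -0.01) in HoxA, -0.06 (-0.19 to 0.07) in HoxB, 0.23 (0.13 to 0.34) in HoxC and -0.47 (-0.67 to -0.28) in HoxD. Without Hoxc13 the HoxC value was 0.02 (-0.08 to 0.12), and without Hoxd4 the HoxD value was -0.08 (-0.26 to 0.10).

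Shares by cluster coincided for 92.2% of Hox counts over the 4 clusters, with HoxD higher and HoxC lower in AEW. HoxD genes summed to 106 CPM in AEW and 75.5 CPM in control, a ratio of 1.41 (1.29 to 1.54), or 1.25 (1.13 to 1.38) without Hoxd4. HoxC genes summed to 161 CPM in AEW and 202 CPM in control, a ratio of 0.795 (0.748 to 0.845), or 0.839 (0.780 to 0.902) without Hoxc8 and Hoxc13. Neither sum passed 1.5-fold. HoxA had a ratio of 1.06 (0.979 to 1.14) and HoxB of 0.997 (0.925 to 1.08), and both intervals included 1. Of all Hox counts, HoxD took 20.8% (19.9 to 21.8) in AEW and 14.7% (13.65 to 15.7) in control, and HoxC took 31.5% (30.4 to 32.5) in AEW and 39.3% (37.8 to 40.7) in control. Where both clusters had counts in both libraries, the Hoxd ratio was above the Hoxc ratio in groups 4, 8 and 9. The ratios were 2.61 against 0.726, 1.35 against 0.590 and 1.31 against 0.778. In group 10 the order was the other way round, with 0.767 for Hoxd10 and 1.37 for Hoxc10. In groups 11 to 13, which both clusters also hold, Hoxc11, Hoxc12 and Hoxd13 had 0 counts in both libraries, so no ratios were compared. Hoxc13 had 95 counts in AEW and 0 in control.

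Levels of different genes are compared per kilobase of exon, on a scale of CPM per kilobase. That scale applies where reads come from the whole transcript, since a longer one then gives more reads. If only transcript ends were read, CPM without division by length applies, led by Hoxd8 at 56.7 in AEW and Hoxc9 at 64.5 in control. In the AEW library the order was led by Hoxc6 at 25.9, Hoxc9 at 21.1, Hoxd8 at 20.7, Hoxb5 at 20.2 and Hoxc8 at 19.4. In the control library it was led by Hoxc8 at 32.8, Hoxc6 at 31.3, Hoxc9 at 27.2, Hoxb7 at 16.3 and Hoxb5 at 16.1. Hoxc6, Hoxc8, Hoxc9 and Hoxb5 were thus among the first 5 in both, and Hoxc8 was the fifth in AEW and the first in control. Across the 31 measured genes with control counts, log2 CPM in AEW and in control had a Pearson r of 0.946 and a Spearman rho of 0.967. Genes of a cluster are neighbours and are not independent. Levels differ widely between genes, which raises such correlations whatever ganglia were taken. The correlations therefore do not answer whether the pools came from similar levels.

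Paralogue groups 1 to 3 pattern the hindbrain and the pharyngeal arches. Hoxd1, which mouse pain-sensing neurons need for their normal connections, had 21 counts in AEW and 5 in control, a ratio of 2.57 whose interval of 0.942 to 8.71 included 1. Hoxa2, which sets the identity of the second pharyngeal arch, had 2.09 CPM in AEW and 1.55 CPM in control, and Hoxb2 had 3.17 CPM in AEW and 2.76 CPM in control. Ratios of the group 3 genes were all close to 1. Hoxa3 had 9.24 CPM in AEW and 8.84 CPM in control, Hoxb3 19.7 CPM in AEW and 19.9 CPM in control, and Hoxd3 5.06 CPM in AEW and 4.97 CPM in control. Their summed ratio was 1.01 (0.874 to 1.17). Exons of Hoxa3 and Hoxd3 share bases with RNA genes on the opposite strand, and those reads may be shared.

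Group 4 genes mark the neck and its border with the hindbrain, and here Hoxd4 parted from its paralogues. Hoxd4 (ENSMUSG00000101174.8, chromosome 2, 74711929 to 74729160, plus strand, mm10) had 346 counts in AEW and 81 in control, or 23.3 CPM in AEW and 8.95 CPM in control. The ratio was 2.61 (2.04 to 3.37), the highest among measured Hox genes with control counts. Hoxb4, known for its part in blood stem cell growth, had 25.8 CPM in AEW and 31.5 CPM in control, a ratio of 0.821 (0.702 to 0.960). Hoxc4 had 8.10 CPM in AEW and 11.2 CPM in control, a ratio of 0.726 (0.552 to 0.955), and Hoxa4 had 3.78 CPM in AEW and 3.09 CPM in control, a ratio of 1.22 (0.763 to 1.998). Without Hoxd4 the group 4 sum had a ratio of 0.825 (0.725 to 0.939), and with it 1.12 (0.9999 to 1.25). Hoxd4 stayed called higher under all 9 settings tried for it, at log2 ratios from 0.75 to 1.47. Those that changed the count filter could not alter the call.

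Hoxd3 (chromosome 2, 74711927 to 74748442, plus strand), whose annotated span overlaps that of Hoxd4, had a ratio of 1.02 (0.694 to 1.51). Hoxd3os1, an RNA gene on the opposite strand (chromosome 2, 74703248 to 74716130), had 92 counts in AEW and 110 in control, a ratio of 0.511 (0.383 to 0.680), and was called lower. Over all GENCODE transcripts, a first exon of Hoxd4 shares 388 bases with Hoxd3 on the same strand and 347 with Hoxd3os1 on the other. The sources used here do not say how such reads were assigned, so the Hoxd4, Hoxd3 and Hoxd3os1 counts cannot be fully separated.

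Promoters of the group 4 genes are shown because Hoxd4 was the only member of its group past the threshold. The sequences are RefSeq promoters on GRCm38.p6, from 250 bases before to 50 bases after the annotated start, and Hoxa4 has no entry in the table. The windows lie at chr2:74721728-74722027 for Hoxd4, chr11:96318017-96318316 for Hoxb4 and chr15:103034145-103034444 for Hoxc4, all on the plus strand, and capitals mark CG dinucleotides. The GENCODE spans of Hoxd4 and Hoxc4 start earlier, at 74711929 and 103018934. Their windows thus lie inside the spans and do not cover those first starts.
Hoxd4: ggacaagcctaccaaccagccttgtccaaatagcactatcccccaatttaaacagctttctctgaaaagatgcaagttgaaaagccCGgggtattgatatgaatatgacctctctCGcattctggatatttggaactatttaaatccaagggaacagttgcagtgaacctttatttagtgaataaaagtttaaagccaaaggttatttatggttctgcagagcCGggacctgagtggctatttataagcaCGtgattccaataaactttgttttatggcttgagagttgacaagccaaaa
Hoxb4: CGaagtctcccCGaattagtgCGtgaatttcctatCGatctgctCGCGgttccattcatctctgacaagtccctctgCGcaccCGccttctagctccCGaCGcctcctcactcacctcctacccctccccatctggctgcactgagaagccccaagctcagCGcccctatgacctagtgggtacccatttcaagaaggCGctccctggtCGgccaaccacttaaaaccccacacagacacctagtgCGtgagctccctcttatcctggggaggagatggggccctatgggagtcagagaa
Hoxc4: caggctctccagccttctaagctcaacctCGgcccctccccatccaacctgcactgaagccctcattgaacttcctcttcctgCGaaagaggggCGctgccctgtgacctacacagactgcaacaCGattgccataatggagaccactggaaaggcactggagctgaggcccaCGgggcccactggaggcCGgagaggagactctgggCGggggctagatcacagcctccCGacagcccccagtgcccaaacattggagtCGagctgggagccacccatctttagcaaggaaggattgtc
The Hoxd4 promoter had 39.7% G and C bases and 4 CG dinucleotides. The Hoxb4 promoter had 58.0% and 14, the Hoxc4 promoter had 60.3% and 9, and the medians over 32851 promoters were 52.7% and 7. The motif TGATNNAT, a form of the site bound jointly by Hox and Pbx proteins, was searched on both strands and had no match in these windows. It was present in 4 of 24 promoters of 22 Hox genes, or 16.7%, and in 8.85% of all promoters of this length.

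Group 5 genes, which include Hoxa5 with its known part in phrenic motor neurons and lung, were slightly higher in AEW without a call. Hoxb5 had 38.2 CPM in AEW and 30.5 CPM in control, a ratio of 1.25 (1.08 to 1.45). Hoxa5 had 27.3 CPM in AEW and 24.1 CPM in control, a ratio of 1.13 (0.960 to 1.34). Hoxc5 had 6.68 CPM in AEW and 6.85 CPM in control. The group sum had a ratio of 1.18 (1.06 to 1.30).

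Groups 6 to 8 mark the forelimb levels of the cord and ganglia. Hoxc6, a marker of motor neurons that serve the forelimb, had 606 counts in AEW and 448 in control, or 40.9 CPM in AEW and 49.5 CPM in control (ratio 0.826, 0.730 to 0.936). Hoxb6 had 4.99 CPM in AEW and 4.42 CPM in control, and Hoxa6 had 17 and 7 counts in AEW and control. Hoxa7 had 29.1 CPM in AEW and 22.9 CPM in control, a ratio of 1.27 (1.08 to 1.51), and Hoxb7 19.9 CPM in AEW and 21.1 CPM in control. None of these 5 passed the threshold.

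Group 8 genes also differed among themselves. Hoxc8 (ENSMUSG00000001657.7, chromosome 15, 102990607 to 102994111, plus strand), which in mice acts in the wiring of forelimb motor and sensory neurons, had 536 counts in AEW and 555 in control, or 36.2 CPM in AEW and 61.3 CPM in control. Its ratio of 0.590 (0.523 to 0.666) was called lower. Hoxd8 had 840 counts in AEW and 379 in control, or 56.7 CPM in AEW and 41.9 CPM in control, with a ratio of 1.35 (1.20 to 1.53) that stayed under the threshold. Hoxb8, whose loss in mice leads to excessive grooming, was level at 5.74 CPM in AEW and 5.74 CPM in control (ratio 0.999, 0.699 to 1.44). The group sum was 98.6 CPM in AEW and 109 CPM in control. Without Hoxc8 its ratio was 1.31 (1.17 to 1.47), against 0.905 (0.834 to 0.982) with it. The call of Hoxc8 ended at a 2-fold threshold and held under the other 8 settings, with log2 ratios from -1.39 to -0.67. Those that changed the count filter could not alter it.

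Group 9 genes mark thoracic levels, where Hoxc9 keeps motor neurons from taking a forelimb fate. Hoxc9 had 744 counts in AEW and 584 in control, the most of any Hox row in the control and over both libraries, or 50.2 CPM in AEW and 64.5 CPM in control (ratio 0.778, 0.697 to 0.869). Hoxa9 was level at 33.3 CPM in AEW and 33.6 CPM in control (ratio 0.991, 0.857 to 1.15). Hoxd9 had 7.69 CPM in AEW and 5.85 CPM in control, and Hoxb9 4.72 CPM in AEW and 6.96 CPM in control (ratio 0.679, 0.476 to 0.970), just under the threshold. It was called lower under upper quartile scaling (log2 ratio -0.59), after thinning of the AEW library to the control total (-0.74) and under pan-neuronal scaling (-1.19).

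Group 10 genes mark lumbar levels and were present in both libraries. They summed to 523 counts in AEW and 338 in control, or 35.3 CPM in AEW and 37.3 CPM in control (ratio 0.945, 0.823 to 1.09). Hoxa10 had 14.2 CPM in AEW and 17.01 CPM in control, Hoxc10 12.4 CPM in AEW and 9.06 CPM in control, and Hoxd10 8.64 CPM in AEW and 11.3 CPM in control. Their ratios were 0.837 (0.677 to 1.04), 1.37 (1.05 to 1.80) and 0.767 (0.586 to 1.004), and none was called.

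Group 11 marks lumbosacral levels and patterns the limb skeleton, and its counts came mostly from Hoxd11. Hoxd11 had 52 counts in AEW and 19 in control, a ratio of 1.67 (0.972 to 2.99), and was called higher under total count scaling (log2 ratio 0.83) and after thinning (0.99). Hoxa11 had 7 counts in AEW and 14 in control, a ratio of 0.305 (0.104 to 0.809) that was called lower on few reads. It was no longer called when the interval had to exclude 1.5-fold, and after thinning it had too few counts to be measured. Hoxa11os, an RNA gene on the opposite strand that shares exon bases with Hoxa11, had 5 counts in AEW and 12 in control. The group summed to 3.98 CPM in AEW and 3.64 CPM in control (ratio 1.09, 0.702 to 1.73).

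**Figure D3:**
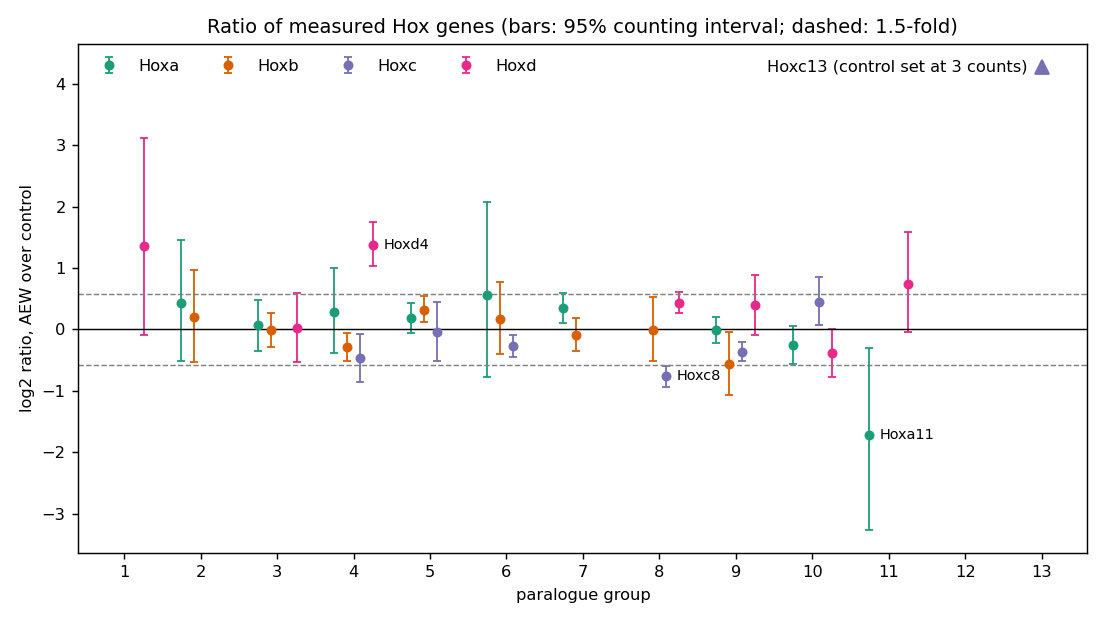
Log2 ratio of AEW over control for measured Hox genes by paralogue group, coloured by cluster, with exact 95% counting intervals, dashed lines at 1.5-fold and a triangle for Hoxc13 with its control set at 3 counts. Most genes lie between the dashed lines, Hoxd4 lies above them and Hoxc8 and Hoxa11 lie below. The points of Hoxd1 and Hoxd11 also lie outside, with intervals that include a ratio of 1, and the ratio had a Pearson r of -0.27 and a Spearman rho of -0.17 with paralogue number over 31 genes that share the same libraries.

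Groups 12 and 13 act in digits, genitals, tail and, for Hoxc13, in hair and nails, where it controls hair keratin genes. Hoxc13 (ENSMUSG00000001655.6, chromosome 15, 102921103 to 102928814, plus strand) had 95 counts in AEW and 0 in control, or 6.41 CPM in AEW, with a ratio of 19.3 when the control is set at the limit of 3 counts and an exact 95% lower limit of 15.4 for the ratio. The other 5 genes of these groups had 2 counts in AEW and 0 in control between them. Epidermis and hair markers were also higher in AEW. All 13 of the measured markers were called higher, beside 17.3% of all measured genes. The hair keratins Krt31 and Krt35 had 695 and 242 counts in AEW and 0 in control. The epidermal keratin Krt5 had 1336 counts in AEW and 1 in control, and Krt14 had 1218 in AEW and 1 in control. Like Hoxc13, these keratins reached the filter of 20 summed counts through AEW alone, so they could only be called higher. The count of 13 is thus partly set by the filter. Markers of this list summed to 13277 counts in AEW and 328 in control, and their part in the Hoxc13 result was not tested.

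Markers of other cell types are set here beside the shares over all measured genes, 17.3% higher and 14.9% lower. Fibroblast markers were called lower for 5 of 10 and higher for none, with a median log2 ratio of -0.66 and summed levels at 0.496 of control. Skeletal muscle markers were called lower for 7 of 10, with a median of -1.31, and glial markers were called higher for 1 and lower for 1 of 11, with a median of -0.13. Sensory neuron markers were called higher for 8 of 12, with a median of 0.73, and pan-neuronal markers for 7 of 14, with a median of 0.63. Of 15 spinal cord markers 12 were measured, 3 were called lower and none higher. Their summed level in AEW was 0.805 of control (2209 counts in AEW and 1676 in control). The largest counts in the sum were those of Mag (934 in AEW, 620 in control), Slc1a2 (483 and 401), Gfap (301 and 245) and Aqp4 (196 and 127). Whether these genes are specific to spinal cord was not tested, so the sum does not measure cord tissue in the pools. The markers called lower were Mog with 49 counts in AEW and 57 in control, Mobp with 77 and 101, and Gad1 with 24 and 27. The motor neuron gene Mnx1 and the glycine transporter gene Slc6a5 had 0 counts in both libraries. The part of these cell types in the Hox values was not tested.

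**Figure D4:**
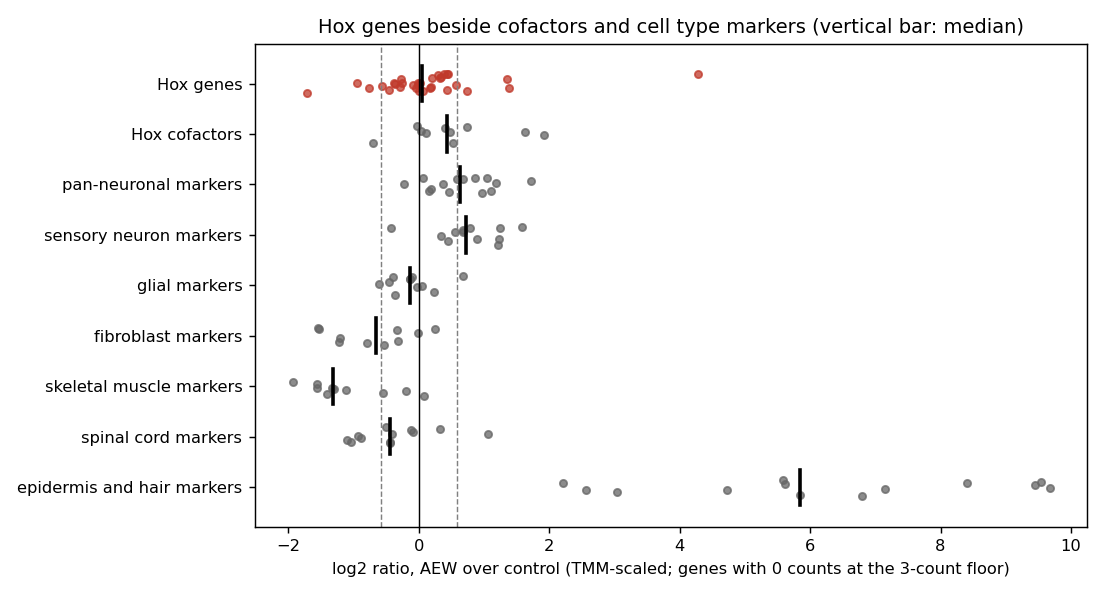
Log2 ratio of AEW over control for each measured gene of the Hox family, of the Hox cofactor list and of 7 marker lists, with a bar at each median and dashed lines at 1.5-fold. The Hox median sits at 0.05, between the neuronal medians of 0.63 and 0.73 and the fibroblast and muscle medians of -0.66 and -1.31, and epidermis and hair markers have a median of 5.84.

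Hox proteins bind DNA together with cofactors of the Pbx, Meis and Pknox families, and 10 genes of this list were measured. Of these, 3 were called higher, 1 was called lower and 6 were not called, beside the background of 17.3% higher and 14.9% lower, and the median log2 ratio was 0.44. Meis3 (chromosome 7, 16175090 to 16186504, plus strand), a Meis family member known for hindbrain patterning, had 338 counts in AEW and 67 in control, or 22.8 CPM in AEW and 7.40 CPM in control (ratio 3.08, 2.37 to 4.07). Pknox2 had 35.3 CPM in AEW and 21.2 CPM in control (ratio 1.66, 1.41 to 1.97). Pbx4 had 31 counts in AEW and 5 in control (ratio 3.79, 1.46 to 12.5). Pbxip1, whose product binds Pbx proteins and restrains them, had 89.4 CPM in AEW and 146 CPM in control and was called lower (ratio 0.614, 0.569 to 0.663).

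On the pan-neuronal scale Meis3 stayed called higher at a log2 ratio of 0.99, and Pbx4 and Pknox2 were not called.

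RNA genes within the clusters and genes at their borders were measured for 14 of 21 rows, of which none was called higher, 3 (21.4%) were called lower and 11 were not called, beside 14.9% lower over all measured genes. The 3 became 1 under total count scaling and 0 at a 2-fold threshold. The median log2 ratio of the 14 was -0.17. The called genes were Hoxd3os1 and the border genes Snx10 at a ratio of 0.644 (0.596 to 0.697) and Atp5g2 at 0.664 (0.598 to 0.738). Cbx5, a heterochromatin protein gene beside HoxC and the member with the most counts, had 185 CPM in AEW and 195 CPM in control (ratio 0.949, 0.893 to 1.01).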

How the data were processed

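Counts per gene symbol were deposited for each library, as whole numbers without normalization. Bowtie2, bedtools and build mm10 are named in the submitters' processing notes. Not given in the sources used here are the annotation counted, the use of strand, whether exons or whole genes were counted, and the treatment of reads with several matches. Per the labels' protocols, libraries were made from 500 ng of Trizol-extracted total RNA with a Lexogen Quant-Seq kit. It is not stated whether only transcript ends were sequenced, so values are shown per gene and per kilobase. Division by length would distort levels and shares if only ends were sequenced. Hoxc5, whose GENCODE M21 span covers Hoxc6, Hoxc8 and Hoxc9, had fewer counts than each of them.

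Library sizes were scaled with TMM (edgeR 4.0.16, R 4.3.3), with factors of 1.03 for AEW and 0.970 for control. CPM is the count per scaled size, times 10 to the power of 6. Ratios have exact conditional binomial (Clopper-Pearson) intervals at 95%, shares exact binomial ones and levels exact Poisson ones. All cover counting error only, since each group has 1 library. Reads carry no molecular identifiers, so duplicate reads could make these intervals too narrow. With 1 library per group no p-value was computed. Rows with a summed count of at least 20 were measured, and 79 rows with 35 repeated symbols stayed out of calls. The interval of the mean paralogue number is normal. Locations and exon lengths are from GENCODE M21 on mm10, where 5 Hox genes share exon bases with another row over the basic transcripts and 9 over all transcripts. Any Hox gene could be named, and a few results are not reported here. Of other lists, genes called and the member with the most counts could be named, and a few markers were named after their values were seen. The members and lists were chosen with earlier results of these data known.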

Additional observations from a re-analysis of the deposited data

How the results depend on the processing

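No paired analysis was possible because each group has 1 library. DESeq2 1.42.0 size factors, upper quartile scaling, leaving out the filter on low counts, and thinning of the AEW library to the control total left the number of Hox calls within 1.5 times of the values given and the Hox total ratio between 0.972 and 0.992. The genes were not all the same, since after thinning Hoxa11 was not measured, Hoxb9 was lower and Hoxd11 higher. Of 276 recomputed calls of measured Hox genes, 255 stayed as they were, and Hoxd4 kept its call in each. Many of the 276 could not change, so the count does not measure stability. Changes to the count filter alter no call of a gene still measured, and stricter thresholds cannot add a call. Total count scaling gave 4 Hox genes higher and a total ratio of 1.05. Scaling on pan-neuronal markers gave 709 genes higher and 7193 lower, 16 Hox genes lower, a Hox median of -0.59, a total ratio of 0.639, and 1 cofactor higher and 3 lower. A summed count of at least 100 left 1 Hox gene higher and 1 lower. A 2-fold threshold gave 1223 genes higher and 1018 lower, 1 Hox gene lower and 0 cofactors lower. An interval that excludes 1.5-fold gave 1327 genes higher and 1071 lower, 1 Hox gene lower and 1 cofactor higher. Without Hoxc13, a choice made after seeing the data, 1 Hox gene was higher and the share of groups 10 to 13 differed by -0.14 points. The group and cluster values without Hoxd4 or Hoxc8 were also chosen after seeing the data. Without genes that overlap another row, group 1 had a ratio of 2.93 and group 7 of 0.944, and without Hoxc9 group 9 had 0.985. In the overlap and Hoxc9 settings the cause is the smaller set of genes. For the other shifts the cause was not tested. Depth limits groups 1, 2 and 11 to 13, where a single gene has at most 95 counts in a library.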

Other observations

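Upstream patterning genes act before the Hox clusters in setting axial position, and most of the list belongs to retinoic acid signalling. Of 15 measured, 6 (40.0%) were called lower in the AEW library, none was called higher and 9 were not called, beside 14.9% lower and 17.3% higher over all measured genes. Their median log2 ratio was -0.57. Fibroblast markers were also lower, for 5 of 10 with a median of -0.66 and a summed level at 0.496 of control, and their part in these values was not tested. Among members not called, Rara had a ratio of 1.49 and Rarg of 1.24. Aldh1a1, an enzyme that makes retinoic acid, had 58.8 CPM in AEW and 113 CPM in control (ratio 0.520, 0.474 to 0.569). Cyp26b1, an enzyme that breaks it down, had 79.8 CPM in AEW and 120 CPM in control (ratio 0.664, 0.611 to 0.722). Aldh1a2 had a ratio of 0.666 (0.547 to 0.810), the receptor genes Rarb 0.636 (0.455 to 0.889) and Rxrg 0.583 (0.469 to 0.725), and Egr2, a hindbrain and Schwann cell factor, 0.531 (0.454 to 0.621). Under total count scaling 3 of the list stayed called lower and 1 was called higher. The 6 called lower became 0 at a 2-fold threshold and 2 when the interval had to exclude 1.5-fold.

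Of 24 chromatin regulators of Hox genes, all measured, 2 (8.33%) were called higher, 4 (16.7%) were called lower and 18 were not called, below and near the 17.3% and 14.9% over all measured genes. Their median log2 ratio was 0.13. The Polycomb genes Ezh2 at 0.658 (0.576 to 0.753), Bmi1 at 0.620 (0.538 to 0.715) and Phc1 at 0.637 (0.489 to 0.831) and the demethylase gene Kdm6a at 0.573 (0.457 to 0.719) were lower. Wdr5 at 1.81 (1.52 to 2.17) and Ring1, also a Polycomb gene, at 2.05 (1.17 to 3.76) were higher. The Polycomb gene Cbx6, the member with the most counts, had a ratio of 1.30 (1.24 to 1.37) and was not called. The 4 called lower became 2 under total count scaling and 0 at a 2-fold threshold. The 2 called higher became 4 under total count scaling and 1 at a 2-fold threshold. Of 25 other positional transcription factors, 9 were measured, 4 were called higher and none lower, beside 17.3% and 14.9% over all measured genes. The 4 became 1 after thinning of the AEW library to the control total and 0 at a summed count of at least 100. These were Msx1 with 62 counts in AEW and 22 in control, Msx2 with 23 and 1, Irx5 with 23 and 2, and Otx1 with 25 and 0, AEW first in each. Msx2, Irx5 and Otx1 reached the filter of 20 summed counts through AEW alone, so they could only be called higher. The number called higher in this list is thus partly set by the filter.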
